A study of Mus musculus with 11 samples.

Results

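The miR-148 and miR-152 family of the mouse comprises 3 hairpins, Mir148a, Mir148b and Mir152, whose 3p arms share 1 seed. Its members were taken by name, as every entry of the small RNA tables with the stem miR-148a, miR-148b or miR-152 on either arm, which gave 6 of the 1096 mature miRNAs, 3 from 3p arms and 3 from 5p arms. Small RNAs were sequenced from spermatogonial progenitor cells (SPCs), germ cells isolated from testes of mouse pups by the surface protein Thy1 and grown on inactivated STO cells, a feeder line of mouse embryonic fibroblasts. The labels give strain C57BL/6 and postnatal day 6 for both samples, whereas the methods name B6;129S-Gt(Rosa)26Sor/J pups of 6 to 8 days. Control cells carried the lentiviral vector without an shRNA against Mov10 (shVector), and knockdown cells carried an shRNA against the RNA helicase gene Mov10. The methods name shMov10-832 for the RNA-seq libraries and do not name the construct again for the small RNA libraries. Each group was 1 library, so that no difference given here was measured against the spread between cultures, and every interval and p-value covers counting error alone.

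The control library held 9628835 reads on miRNAs and the knockdown library 2794593. The deposited TPM is the number of reads per 1000000 of a library total without a length correction, and 1 read equalled 0.0951 TPM in control and 0.313 TPM in knockdown cells. Mov10 mRNA is not seen in small RNA libraries, and its depletion was therefore not checked here. The paper reports lower Mov10 mRNA and MOV10 protein in SPCs that carried the shRNA. Feeder cells are also of mouse origin, so any of their miRNAs in the libraries were counted together with those of the germ cells. Of 10 germ and stem cell miRNAs listed in the tables, 9 were above 1.5 TPM in at least 1 library, and their 10 levels summed to 162813 TPM in control and 127722 TPM in knockdown cells. Most of each sum was miR-182-5p alone, with 142065 TPM in control and 103395 TPM in knockdown cells. All 5 mesenchymal miRNAs that mark fibroblasts were present, with a sum of 25430 and 29151 TPM, of which miR-143-3p had 18362 and 20113 TPM. In such bulk libraries, fewer cells of a type and less RNA per cell cannot be told apart.

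A miRNA is cut from a hairpin as a duplex of a 5p and a 3p strand, and 1 strand is usually kept by an Argonaute protein while the other is degraded. The retained strand finds its mRNA targets mainly through its seed, bases 2 to 8 from the 5′ end. The family is best known for targeting DNA methyltransferases, the enzymes that methylate cytosine in DNA and that are needed when methylation is laid down in male germ cells. The mature sequences, from RefSeq on GRCm38, are shown because the family is defined by the seed, which is in capitals, and because the bases after it separate the 3 loci.

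miR-148a-3p: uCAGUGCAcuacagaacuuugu
miR-148b-3p: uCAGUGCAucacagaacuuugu
miR-152-3p: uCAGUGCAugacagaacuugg
miR-148a-5p: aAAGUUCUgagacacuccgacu
miR-148b-5p: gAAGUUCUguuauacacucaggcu
miR-152-5p: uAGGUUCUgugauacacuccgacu

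The 3p forms carried the seed CAGUGCA, which no other entry had among the 908 of 1096 miRNAs matched to a RefSeq mature sequence. Counted from the 5′ end, miR-148a-3p and miR-148b-3p differed at 2 bases (C9U and U10C, miR-148a-3p first). miR-152-3p differed from miR-148a-3p by C9U, U10G and U20G, and from miR-148b-3p by C10G and U20G, with miR-152-3p given second. Because the authors allowed no mismatch in mapping, a read that covers bases 9 and 10 is assigned to 1 of the 3 forms. On the other arm, miR-148a-5p and miR-148b-5p shared the seed AAGUUCU, whereas miR-152-5p had AGGUUCU, and no other matched miRNA carried either.

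Mir148a lies at chr6:51269812-51269910 on the minus strand of GRCm38 and is outside any other gene of GENCODE vM21. Its nearest annotated gene is Gm32479, a long noncoding RNA gene on the same strand that lies upstream of it. The near end of Gm32479, which is its 3′ end, is 13621 bp away. The nearest coding gene is Nfe2l3 at 162759 bp. The other loci sit in paralogous host genes, both on the strand of the host and both in the first intron. Mir148b (chr15:103285125-103285221) is in a 16159-bp intron of Copz1 and begins 12183 bp after the 5′ splice site. Mir152 (chr11:96850393-96850465) is in a 676-bp intron of Copz2, 396 bp after the 5′ splice site and 207 bp before the 3′ splice site. Copz1 and Copz2 encode the zeta subunits of the COPI coat, which shapes vesicles of the Golgi. The host mRNAs were not analysed here.

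The 3 loci were read at very different levels. In control SPCs, miR-148a-3p had 170868 reads, or 16245 TPM, and ranked 14 among all miRNAs. miR-148b-3p followed with 11308 reads (1075 TPM, rank 74), and miR-152-3p had 892 reads (84.8 TPM, rank 218). The 3 forms with 1 seed were thus spread over more than 2 orders of magnitude, with 15.1 reads of miR-148a-3p for each read of miR-148b-3p and 192 for each read of miR-152-3p. Of all reads with this seed, miR-148a-3p made up 93.3% in the control (95% Clopper-Pearson interval 93.22 to 93.45%). The 5p forms ranked differently, with 4494 reads for miR-148a-5p (427 TPM), 978 for miR-152-5p (93.0 TPM) and 351 for miR-148b-5p (33.4 TPM). Levels of different miRNAs are compared as reads per mature form, and they also carry any difference in how well each form was ligated.

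**Figure D1:**
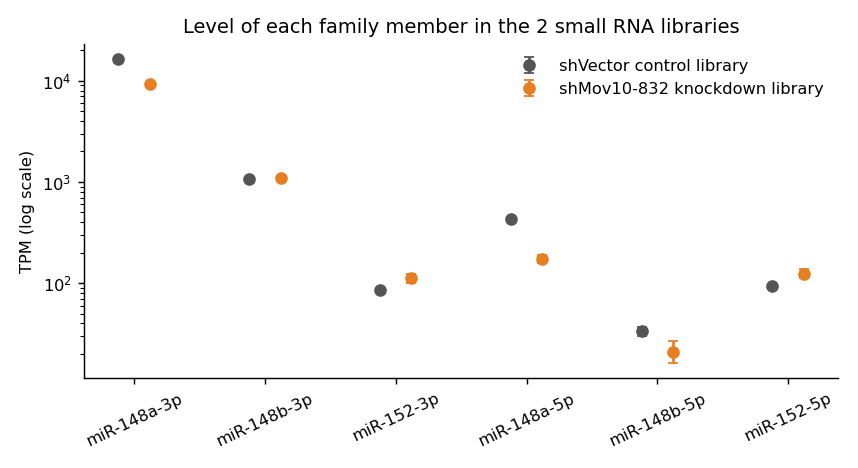
Level of the 6 family members in TPM (log axis) in the control and the knockdown library, 1 library each, with exact 95% Poisson intervals that cover counting error only. The construct in the legend is the one that the methods name for RNA-seq. Both forms of Mir148a and miR-148b-5p are lower in the knockdown, miR-148b-3p lies at 1075 and 1102 TPM, and both forms of Mir152 are higher on this scale.

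In Mov10 knockdown SPCs, the family shifted away from Mir148a. miR-148a-3p had 29409 reads, or 9207 TPM, which was 1.76-fold lower than in the control, and its rank went from 14 to 26. The log2 fold change was -0.82 (95% interval -0.84 to -0.80, with a pseudocount of 0.1 TPM). Its partner strand miR-148a-5p was lower still, with 553 reads and 173 TPM against 427 in the control, a log2 fold change of -1.30 (-1.43 to -1.18). With 2.47-fold, miR-148a-5p had the largest difference of the 6 members.

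Both products of Mir152 were higher in TPM in the knockdown library, a direction that turned only with 1 common total for both libraries. miR-152-3p had 356 reads and 111 TPM against 84.8 in the control, a log2 fold change of 0.39 (0.21 to 0.57, adjusted p = 8.8e-05, exact binomial test). miR-152-5p had 397 reads and 124 TPM against 93.0, a log2 fold change of 0.42 (0.25 to 0.59, adjusted p = 8.9e-06, exact binomial test). Both were under 1.5-fold with the deposited TPM and with reads on miRNAs, and both were over it with the median ratio (0.65 and 0.67) and with TMM factors (0.61 and 0.64). The test compares the reads of 2 libraries, with Benjamini-Hochberg adjustment over all 1096 miRNAs, and does not compare the conditions.

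Mir148b stood between the other loci, and its arms went apart. miR-148b-3p had 3519 reads and 1102 TPM against 1075, a log2 fold change of 0.04 whose interval included 0 (-0.02 to 0.09, adjusted p = 0.46, exact binomial test). The same test called it higher when the libraries were scaled by reads on miRNAs (0.10, adjusted p = 0.0014), TMM factors (0.25, adjusted p = 2.6e-18) or the median ratio (0.29, adjusted p = 3.7e-23). Before the pseudocount, these scalings raise the log2 ratio of every miRNA by 0.065, 0.22 and 0.25. The share of all miRNAs called under each of them is not given here, so these calls have no background beside them. miR-148b-5p had 67 reads and 20.97 TPM against 33.4, a log2 fold change of -0.67 (-1.07 to -0.29, adjusted p = 0.0013, exact binomial test). It is the member with the fewest reads and the widest interval, and its adjusted p-value was 0.084 when the libraries were scaled by the median ratio and 0.058 with TMM factors.

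All 6 members were above 1.5 TPM in both libraries, the minimum of the study, applied here to the higher library. With the study's limit of 1.5-fold, miR-148a-3p, miR-148a-5p and miR-148b-5p were lower and none was higher, while the other 3 lay within the limit. Among all 607 miRNAs above the minimum, 252 were lower over 1.5-fold (41.5%) and 96 were higher (15.8%), so that lower members were about as frequent as the table as a whole would give. The paper reports more lower and far fewer higher miRNAs at its limits than these counts from the deposited TPM. The reason for this difference was not tested. The binomial test called the same 3 members lower, against 21.4% of the 1096 miRNAs, and both miR-152 forms higher, against 10.7%. The 1096 include miRNAs below the minimum, many with too few reads to be called. These 2 shares are therefore not matched to the depth of the members. The median log2 fold change of the 607 was -0.37. miR-148a-3p was 0.45 below this median (-0.45) and miR-148a-5p 0.94 below (-0.94), whereas miR-148b-3p was 0.40 and miR-152-3p 0.76 above it. Of the 607 miRNAs, 16.3% had a lower fold change than miR-148a-5p and 77.4% a lower one than miR-152-3p.

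**Figure D2:**
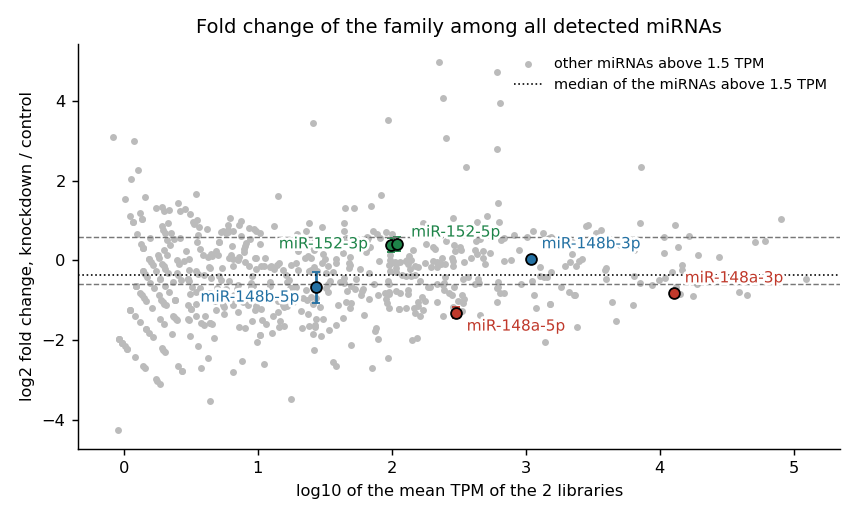
Log2 fold change, knockdown over control, against the log10 mean TPM for the 607 miRNAs above 1.5 TPM, with the 6 members coloured by locus and their 95% counting intervals. Dashed lines mark 1.5-fold and the dotted line the median of -0.37. The 2 forms of Mir152 and miR-148b-3p lie above the median, and the 2 forms of Mir148a and miR-148b-5p below it.

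These directions depend on what the libraries are divided by. The deposited totals, the reads on miRNAs, TMM factors and the median ratio all left both Mir148a forms and miR-148b-5p below 0 and both Mir152 forms and miR-148b-3p above 0. Before the pseudocount, the median ratio and TMM raise each log2 ratio by 0.25 and 0.22. With the median ratio, 1 member was lower and 2 were higher over 1.5-fold, where 31.5% and 23.7% of the 607 miRNAs were. With TMM, 2 were lower and 2 higher, where 33.1% and 23.2% of the 607 were. One common total for both libraries compares raw reads and shifts the log2 ratio by -1.72 before the pseudocount. All 6 members were then lower over 1.5-fold, as were 93.6% of the 607, whose median was -1.90. Under that total miR-152-5p stood at -1.29 and miR-148a-5p at -3.02. The order of the 6 members was the same in all 5 scalings by construction, because each scaling shifts all log2 ratios by the same amount.

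**Figure D3:**
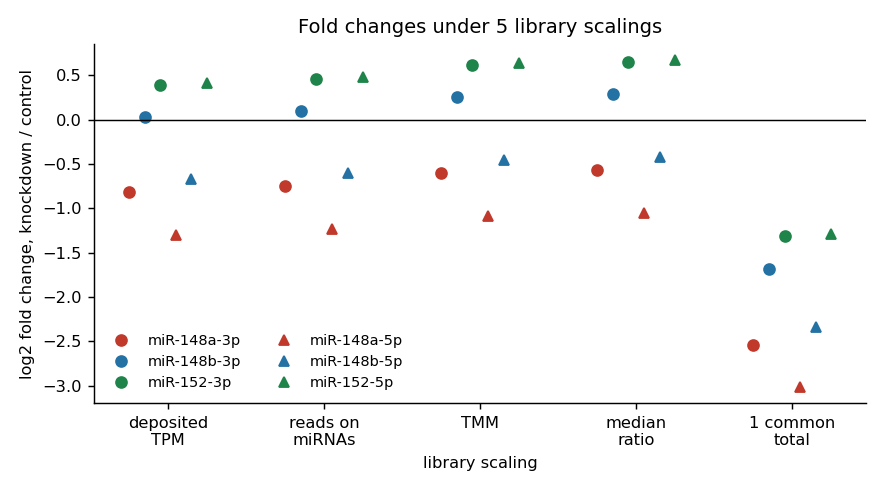
Log2 fold change of the 6 members, knockdown over control, with the deposited TPM and under 4 other library scalings. Circles are 3p and triangles 5p forms, coloured by locus. The order of the members is the same under each scaling by construction. Of the 5, only 1 common total puts miR-148b-3p and both miR-152 forms below 0, at -1.68, -1.32 and -1.29.

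Ratios between members within a library need no library total, and they were compared directly for the 3 pairs of 3p forms. For each read of miR-148b-3p there were 15.1 reads of miR-148a-3p in control and 8.36 in knockdown cells, a log2 change of -0.85 (exact 95% interval -0.91 to -0.80, adjusted p over the 3 pairs = 1.4e-170, Fisher's exact test). The ratio of miR-148a-3p to miR-152-3p went from 192 to 82.6, a change of -1.21 (-1.39 to -1.03, adjusted p = 1.5e-35, exact test). The ratio of miR-148b-3p to miR-152-3p changed least, from 12.7 to 9.88, by -0.36 (-0.55 to -0.17, adjusted p = 0.00020, exact test). All 3 loci were therefore separated from each other by more than counting error, in the order Mir148a, Mir148b, Mir152 from the most reduced to the least. Other pairs of miRNAs were not compared in this way. No share of called pairs can be set beside these 3, and such separation need not be particular to the family. When both arms of each hairpin were summed, the 3 changes were -0.85, -1.24 and -0.39.

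The seed family as a whole followed its most abundant form. Summed over the 3 loci, the 3p forms had 17405 TPM in control and 10420 TPM in knockdown cells, with a log2 fold change of -0.74 (-0.76 to -0.72), and their part of all miRNA reads went from 1.90% to 1.19%. The sum fell by 6985 TPM and miR-148a-3p alone fell by 7038 TPM, while miR-148b-3p was higher by 26.5 TPM and miR-152-3p by 26.6 TPM. Without miR-148a-3p, the sum of the other 3p forms came to 1160 TPM in control and 1213 TPM in knockdown cells, with a log2 fold change of 0.06 (0.01 to 0.12). The share of miR-148a-3p among reads with this seed was 88.4% in the knockdown (95% Clopper-Pearson interval 88.01 to 88.70%), against 93.3% in the control. The share of miR-148b-3p went from 6.18% to 10.6%, and that of miR-152-3p from 0.487% to 1.07%. Summed by hairpin, Mir148a had 16672 and 9380 TPM, Mir148b 1108 and 1123 TPM, and Mir152 178 and 236 TPM.

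The arms were then compared within each hairpin. Mir148a and Mir148b gave almost only 3p reads, and Mir152 gave both arms about equally. In the control, the 5p form made up 2.56% of the reads of Mir148a (95% Clopper-Pearson interval 2.49 to 2.64%), 3.01% of Mir148b (2.71 to 3.34%) and 52.3% of Mir152 (50.01 to 54.6%). Among 163 hairpins with both arms listed and at least 50 reads in each library, the arm with fewer reads had a median share of 2.84%, and only 3 hairpins were closer to an even split than Mir152. The hairpins of Mir148a and Mir148b, with 77 and 86 of the 163 at or below their minor share in the control, were near the middle.

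In the knockdown library the 5p share was 1.85% for Mir148a (1.70 to 2.00%) and 1.87% for Mir148b (1.45 to 2.37%). The log2 change of the 5p to 3p ratio was -0.48 for Mir148a (exact 95% interval -0.62 to -0.36, p = 1.9e-13 adjusted over the 163 hairpins, Fisher's exact test). For Mir148b it was -0.71 (-1.11 to -0.32, adjusted p = 9.2e-04, exact test), on 67 reads of the 5p form. For Mir152 the 5p share was 52.7% (49.1 to 56.3%), and the change of 0.02 had an interval of -0.23 to 0.27 (adjusted p = 1, exact test). These intervals of Mir148a and Mir148b overlap, and the change of arms was not tested between hairpins. The test called 51 of the 163 hairpins (31.3%), of which 29 had less and 22 more of the minor arm, with a median log2 change of -0.03 over the 163. A larger loss of the minor arm than in Mir148a was measured in 45 hairpins, and than in Mir148b in 32.

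**Figure D4:**
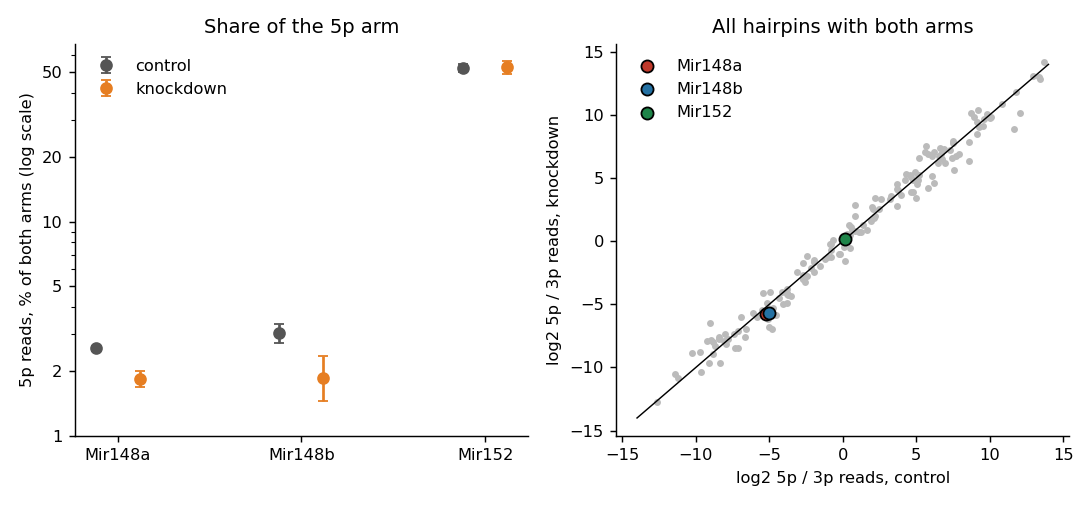
Left, 5p reads as a percentage of both arms (log axis) for the 3 hairpins in each library, with 95% Clopper-Pearson intervals. Right, log2 ratio of 5p to 3p reads in the knockdown against the control for 163 hairpins (grey, 0.5 read added to each arm), with the family in colour and a line of equal ratios. Mir148a and Mir148b lie slightly below the line and Mir152 on it, near 0 on both axes.

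Members of 1 seed family can have the same targets, and the range of their fold changes was set beside that of other families. Families were taken from the miRNAs with a RefSeq sequence, the minimum TPM and at least 100 reads in the control, which gave 40 families of 2 or more miRNAs with a median range of 0.57 on the log2 scale. The 3p forms of the family spanned 1.21, from -0.82 for miR-148a-3p to 0.39 for miR-152-3p, and ranked 10 by range. Of the 16 families with 3 or more members, 5 had a wider range. miR-148a-5p and miR-148b-5p spanned 0.64 and ranked 17. In 9 of the 40 families, including the 3p family, 1 member was lower over 1.5-fold while another was above 0. Members without a matched sequence, such as miR-34c-5p and miR-30d-5p, were left out, so that some families are incomplete and their ranges may be wider. These ranges are given as a description and were not tested.

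**Figure D5:**
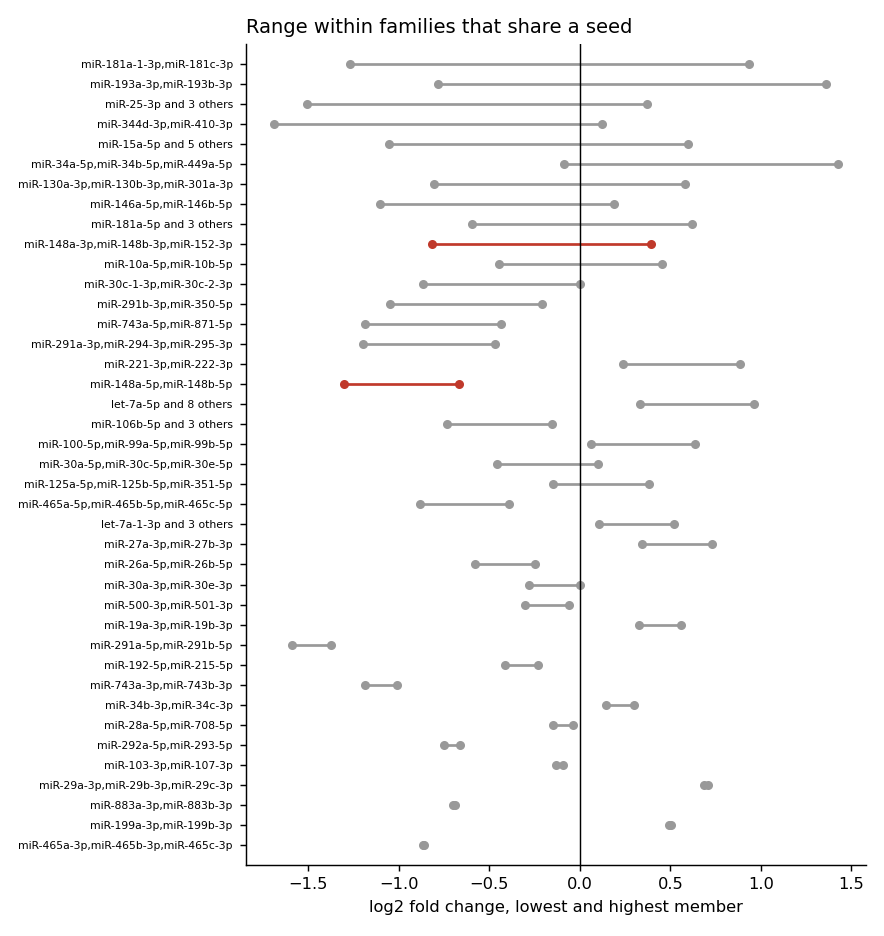
Lowest and highest log2 fold change, knockdown over control, within each of 40 families of miRNAs that share bases 2 to 8, ordered by range. The miR-148 and miR-152 families are in red. The 3p family extends from -0.82 to 0.39, on both sides of 0, and the pair of 5p forms lies below 0 as a whole.

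Other miRNAs known to target DNA methyltransferases were examined as a list of 6. The 3 members of the miR-29 family, which target the de novo enzymes DNMT3A and DNMT3B, were higher over 1.5-fold in TPM (below 0 with 1 common total), with log2 fold changes of 0.69 for miR-29a-3p (2555 and 4123 TPM), 0.68 for miR-29b-3p and 0.71 for miR-29c-3p. miR-143-3p, which is also on the fibroblast list, stood at 0.13, miR-185-5p at -0.36 and miR-342-3p at -0.38, all within 1.5-fold. None of the 6 was lower over 1.5-fold and 3 were higher, against 41.5% and 15.8% of the 607, and their median was 0.41, against -0.37 for the 607 miRNAs. Hence the miR-29 forms were within 0.03 of each other, whereas the 3p forms of the miR-148 and miR-152 family were on both sides of 0.

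Marker miRNAs of germ and stem cells, fibroblasts and blood cells are given beside these results. Of the 9 germ and stem cell miRNAs above the minimum, 5 were lower over 1.5-fold, 1 (miR-34c-5p) was higher and 3 were within, with a median of -0.61, against 41.5% lower, 15.8% higher and a median of -0.37 among the 607. Of the 5 fibroblast miRNAs none was past 1.5-fold in either direction, and their values ran from -0.42 for miR-214-3p to 0.51 for miR-199a-3p with a median of 0.13. Of 5 blood cell miRNAs, 3 were above the minimum, and miR-142a-3p and miR-142a-5p were lower over 1.5-fold, with a sum over all 5 of 176 TPM in control and 34.7 TPM in knockdown cells. The part of the cell types in the family's values was not tested.

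The miRNAs whose levels were most like those of each 3p form were named by the distance in log2(TPM + 0.1) over the 2 libraries. Closest to miR-148a-3p were miR-191-5p (16165 and 10289 TPM, distance 0.16), miR-30d-5p (18088 and 10148 TPM, distance 0.21) and miR-871-5p (12510 and 9259 TPM, distance 0.38). miR-148b-3p had no very close neighbour, the nearest being miR-30b-5p (1351 and 1198 TPM, distance 0.35), miR-151-5p and miR-340-5p. Closest to miR-152-3p were miR-450b-5p (86.3 and 121 TPM, distance 0.12), miR-34c-3p and miR-153-3p.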

How the data were processed

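Small RNA libraries of control and Mov10 knockdown SPCs, 1 per group, were used, and RNA-seq and CLIP-seq samples were not used here. The methods speak of triplicate samples, and whether these were pooled is not stated. Per the paper's methods, the authors filtered rRNA, trimmed adaptors with Fastx and mapped reads to miRBase with CLC Genomics Workbench without mismatch. The submitters' processing notes also list Cufflinks 2.1.1. The authors deposited raw read counts per mature miRNA. The authors also deposited TPM, which equals reads divided by a total of 10518277 (control) or 3194363 (knockdown).

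Here, 0.1 TPM was added before taking log2 fold changes, and their intervals are exact intervals of the read ratio. Reads were compared between the libraries by a two-sided exact binomial test given these totals, with Benjamini-Hochberg adjustment over 1096 miRNAs at 0.05. Arms and pairs of loci were compared by two-sided Fisher's exact tests on reads. The arm test was planned for the 3 hairpins, and adjustment over 163 hairpins was added after seeing the data. Tests were tried on simulated reads. Alternatives were 2 other pseudocounts, 4 scalings (TMM from edgeR 4.0.16 on the counts), other minima and a 2-fold limit. Sequences came from RefSeq (GRCm38.p6) and hosts from GENCODE vM21. The named miRNAs are all 6 members, the 3 nearest to each 3p form, and fixed lists of miRNAs that target DNA methyltransferases or mark fibroblasts, germ and stem cells, or blood cells. The members and lists were chosen with earlier results of these data known. Python 3.11.15, scipy 1.17.1 and R 4.3.3 were used.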

Additional observations from a re-analysis of the deposited data

How the results depend on the processing

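No paired analysis was possible because control and knockdown were 1 library each, and no replicate could be left out. With 1 common total of 30000000 reads, the log2 fold changes of miR-148b-3p, miR-152-3p and miR-152-5p turned to -1.68, -1.32 and -1.29, the sums of Mir148b and Mir152 to -1.70 and -1.31, the median of the list that targets DNA methyltransferases from 0.41 to -1.31, and 6 members were lower over 1.5-fold. This follows from the totals. The Mir148b sum, at 0.02 with an interval that included 0 for the deposited TPM, was 0.084 by reads on miRNAs, 0.27 by the median ratio and 0.24 by TMM, with intervals above 0. Lower members numbered 3 with the deposited TPM, 1 at 2-fold and 1 by the median ratio, and higher members 0, and 2 by the median ratio and by TMM. The share of all miRNAs past 2-fold is not given here, so the count at 2-fold cannot be set against it. The summed 3p family turned from -0.74 to 0.065 without miR-148a-3p, its most abundant form. The share of miR-148a-3p was 90.5% of all 6 members' reads in control and 85.7% in knockdown cells, and 93.3% and 88.4% of 3p reads. Of the other alternatives, miR-148b-5p was not called with the median ratio or TMM, and miR-148b-3p was called higher with reads on miRNAs, TMM and the median ratio. Each of these scalings shifts all miRNAs alike, and the share of all miRNAs called under them is not given. The changes of the arm and locus ratios kept their direction and their side of the threshold. Depth limits miR-148b-5p most, with 67 reads in the knockdown.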
